A study of Mus musculus with 12 samples.

Results

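The 9 peptide genes Calca, Calcb, Grp, Tac1, Nts, Cck, Crh, Adcyap1 and Nmb were followed through RNA of ribosomes captured from Slc17a6-expressing cells and RNA of the tissue they came from, in mouse midbrain and hypothalamus. They are 9 of the 32531 features counted, and all 9 passed the filter on low counts that left 18128 genes for testing. They were chosen by their counts in the midbrain, because most of them are higher in the immunopurified fraction (IP) than in the input there, so their midbrain values describe that choice and carry no test. They were tested in the hypothalamus, whose libraries that rule did not use, although earlier results of these data were known when the genes were chosen. All mice were adults of a single transgenic line, Slc17a6-EGFP/Rpl10a (JX883), in which Slc17a6 directs a ribosomal protein fused to a fluorescent tag, and tagged polysomes were pulled down with antibodies against that tag. The 4 groups were midbrain IP, midbrain input, hypothalamus IP and hypothalamus input, with 3 libraries each, numbered as replicates 1, 2 and 3. The labels give neither sex nor the number of mice behind a library, and no IP from untagged mice was analysed here. Every IP library carried one sequencing index and every input library another, so fraction and index cannot be told apart.

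Neuropeptides are made as longer precursors that enter dense-core vesicles, where convertases cut them at pairs of basic residues and a carboxypeptidase trims the ends. Many are then amidated: a glycine next to the cut is turned into a C-terminal amide by the enzyme encoded by Pam, and the amide is needed for full activity at most of their receptors. Released peptides act over longer distances and times than glutamate, on G protein-coupled receptors, and excitatory neurons that use VGLUT2, the vesicular glutamate transporter encoded by Slc17a6, often contain one or more of them. Calca encodes calcitonin and, by alternative splicing, the vasodilator and pain-related peptide alpha-CGRP, and Calcb encodes beta-CGRP. Grp and Nmb encode the mammalian bombesin-like peptides, Tac1 encodes substance P and neurokinin A, Nts neurotensin, Cck cholecystokinin, Crh corticotropin-releasing hormone and Adcyap1 PACAP.

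The amidation signal is a feature that most of these precursors share. Many neuropeptides are amidated, so a high share of matches is built into a choice of peptide genes. A script translated the annotated coding transcripts and searched for glycine followed by a pair of lysine or arginine residues. It was found in 8 of the 9 genes (88.9%) and in 1908 of 9831 genes with a coding transcript of at most 300 codons (19.4%). Crh held no match to these letters, although its peptide is amidated as well, and the Nts match is given only as a match, since neurotensin is not an amidated peptide. The stretches below are coding sequence of GENCODE release M21 on mm10, printed 5′ to 3′ along the coding strand, and are shown because the capitals, the glycine codon and the basic pair, mark where each mature peptide ends. The Calca alpha-CGRP stretch lies on the minus strand at chr7:114632461-114632499 and its calcitonin stretch at chr7:114633656-114633694. The Calcb stretch is on the plus strand at chr7:114722075-114722113, those of Tac1 on the plus strand at chr6:7556735-7556773 for substance P and chr6:7559101-7559139 for neurokinin A, and that of Cck on the minus strand at chr9:121490098-121490136. The Adcyap1 stretches, on the plus strand, are at chr17:93204041-93204079 for the shorter form of PACAP and chr17:93204074-93204112 for the longer form. That of Nmb joins 2 exons on the minus strand between 80904287 and 80904839 of chromosome 7.
Calca alpha-CGRP: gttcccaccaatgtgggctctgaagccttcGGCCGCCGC
Calca calcitonin: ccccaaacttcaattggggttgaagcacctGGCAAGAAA
Calcb beta-CGRP: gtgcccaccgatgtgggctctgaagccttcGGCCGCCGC
Tac1 substance P: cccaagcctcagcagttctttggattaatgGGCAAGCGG
Tac1 neurokinin A: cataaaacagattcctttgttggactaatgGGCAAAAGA
Cck cholecystokinin: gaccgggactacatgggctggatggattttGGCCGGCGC
Adcyap1 shorter PACAP: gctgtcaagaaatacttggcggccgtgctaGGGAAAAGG
Adcyap1 longer PACAP: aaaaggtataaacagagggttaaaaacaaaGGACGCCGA
Nmb neuromedin B: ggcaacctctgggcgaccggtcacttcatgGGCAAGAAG
The CGRP stretches of Calca and Calcb shared 37 of 39 bases, whereas the alpha-CGRP and calcitonin stretches, which come from alternative exons of the same gene, shared 15 of 39. Since the deposited counts are per gene symbol, calcitonin and alpha-CGRP transcripts of Calca cannot be told apart. Reads that fall in stretches shared by Calca and Calcb may be assigned to neither or to the wrong gene, so Calcb, the less abundant of the pair, is uncertain.

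Sequence upstream of the genes was read from RefSeq windows around each gene start (GRCm38.p6), which were given for 6 of the 9 genes. The core of the cyclic AMP response element, TGACG on either strand, was in the windows of 5 of these 6 genes, Adcyap1, Calca, Cck, Nts and Tac1, and in 20.8% of all 32851 windows. The full element TGACGTCA, which contains this core, was in 0 of the 6 and in 1.79% of windows. The motifs CANNTG (4 of 6, 72.3% of windows), TATAAA (1 of 6, 13.6%) and TGANTCA (1 of 6, 7.81%) were searched on both strands in the same way. Each of the 6 genes was counted if any of its windows matched, whereas the percentages are shares of windows, so the units differ. A match is a string of letters and not a measured binding site. The stretches that end just before the annotated start are printed with the core in capitals. It is the only motif searched that was found for more than 4 of the 6 genes. They lie on the minus strand at chr7:114636358-114636537 for Calca, chr9:121495695-121495874 for Cck and chr10:102490487-102490666 for Nts, and on the plus strand at chr17:93198837-93199016 for Adcyap1 and chr6:7554811-7554878 for Tac1.
Calca upstream: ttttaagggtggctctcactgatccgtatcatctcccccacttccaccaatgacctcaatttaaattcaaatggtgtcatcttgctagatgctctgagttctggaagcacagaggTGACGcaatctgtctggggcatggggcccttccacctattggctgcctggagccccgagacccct
Cck upstream: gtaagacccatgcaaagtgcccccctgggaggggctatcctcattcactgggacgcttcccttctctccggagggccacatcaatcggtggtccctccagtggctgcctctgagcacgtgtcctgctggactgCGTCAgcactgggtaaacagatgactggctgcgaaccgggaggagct
Nts upstream: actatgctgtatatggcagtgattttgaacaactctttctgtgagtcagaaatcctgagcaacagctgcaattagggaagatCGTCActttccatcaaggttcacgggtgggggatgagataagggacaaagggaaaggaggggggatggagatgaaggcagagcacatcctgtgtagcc
Adcyap1 upstream: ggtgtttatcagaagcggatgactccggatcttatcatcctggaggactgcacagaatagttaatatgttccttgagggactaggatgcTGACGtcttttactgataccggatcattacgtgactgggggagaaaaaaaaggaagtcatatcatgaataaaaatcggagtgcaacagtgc
Tac1 upstream: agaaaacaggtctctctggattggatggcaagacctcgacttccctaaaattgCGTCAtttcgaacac

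In the mm10 build Calca lies at chr7:114631478-114636357, Calcb at chr7:114718643-114723365 and Nmb at chr7:80902227-80905076. Grp lies at chr18:65872820-65886596, Tac1 at chr6:7554879-7565834 and Nts at chr10:102481756-102490486. Cck lies at chr9:121489824-121495694, Crh at chr3:19693401-19695396 and Adcyap1 at chr17:93199017-93206537. Grp overlaps an annotated antisense gene and Nmb overlaps Sec11a on the same strand, and since the strand setting of the counting is not known, reads of those overlaps cannot be assigned with certainty. Reads marked as ambiguous were 3.14% to 3.65% in IP libraries and 7.68% to 26% in input libraries, and their part in the Grp and Nmb values was not tested. The other 7 genes overlap no annotated gene.

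Libraries held 41909019 to 55148109 counts over genes, and a count of 3 came to between 0.0537 and 0.0709 CPM (counts scaled to a common library total, with totals adjusted by TMM, the trimmed mean of M values). Slc17a6 itself, the gene of the tag, was at 3954, 1864 and 2393 CPM in the midbrain IP and at 1236, 501 and 588 CPM in the midbrain input (replicates 1, 2 and 3), and it rose in both IPs (log2 fold change 1.82, adjusted p = 0.0116 in the midbrain, and 2.60, adjusted p = 0.00184 in the hypothalamus). Markers of other cells fell in the IP: of 5 astrocyte, 5 oligodendrocyte and 5 microglia markers all were lower in both regions, and 6 of 7 GABAergic markers were lower in both. Summed levels of the GABAergic markers were 136 to 259 CPM in the midbrain IP and 1236 to 1799 CPM in the midbrain input. In each group, replicate 1 had the highest Slc17a6 level, and its IP libraries held the largest share of the ribosomal RNA gene Rn45s, 12.5% in the midbrain and 12.3% in the hypothalamus, against 5.21% to 6.85% in the other IP libraries. In bulk libraries, fewer cells of a type and less RNA per cell cannot be told apart.

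Across the midbrain, 7 of the 9 peptide genes had all 3 IP libraries above all 3 input libraries, which is what the choice of genes rests on and which 21.1% of all genes tested did. Of the 9, 0 had all midbrain IP libraries under all input libraries, which 27.8% of genes did. In the hypothalamus the IP was higher for Cck and Adcyap1, the genes of cholecystokinin and PACAP, and for no other of the 9 by the same test. The log2 fold change was 2.48 for Cck (SE 0.39, adjusted p = 0.000557) and 1.89 for Adcyap1 (SE 0.54, adjusted p = 0.0178), by the quasi-likelihood test of edgeR, adjusted over all genes after Benjamini and Hochberg. So 2 of 9 were called higher, where 14.2% of all genes tested were, and 0 of 9 were called lower, where 19.6% were. The count of lower genes was also 0 at an unadjusted p under 0.05, with DESeq2 and with limma-voom. With the replicate number as a block, 3 of 9 were called higher, Nts being added (0.83, adjusted p = 0.00077).

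**Figure D1:**
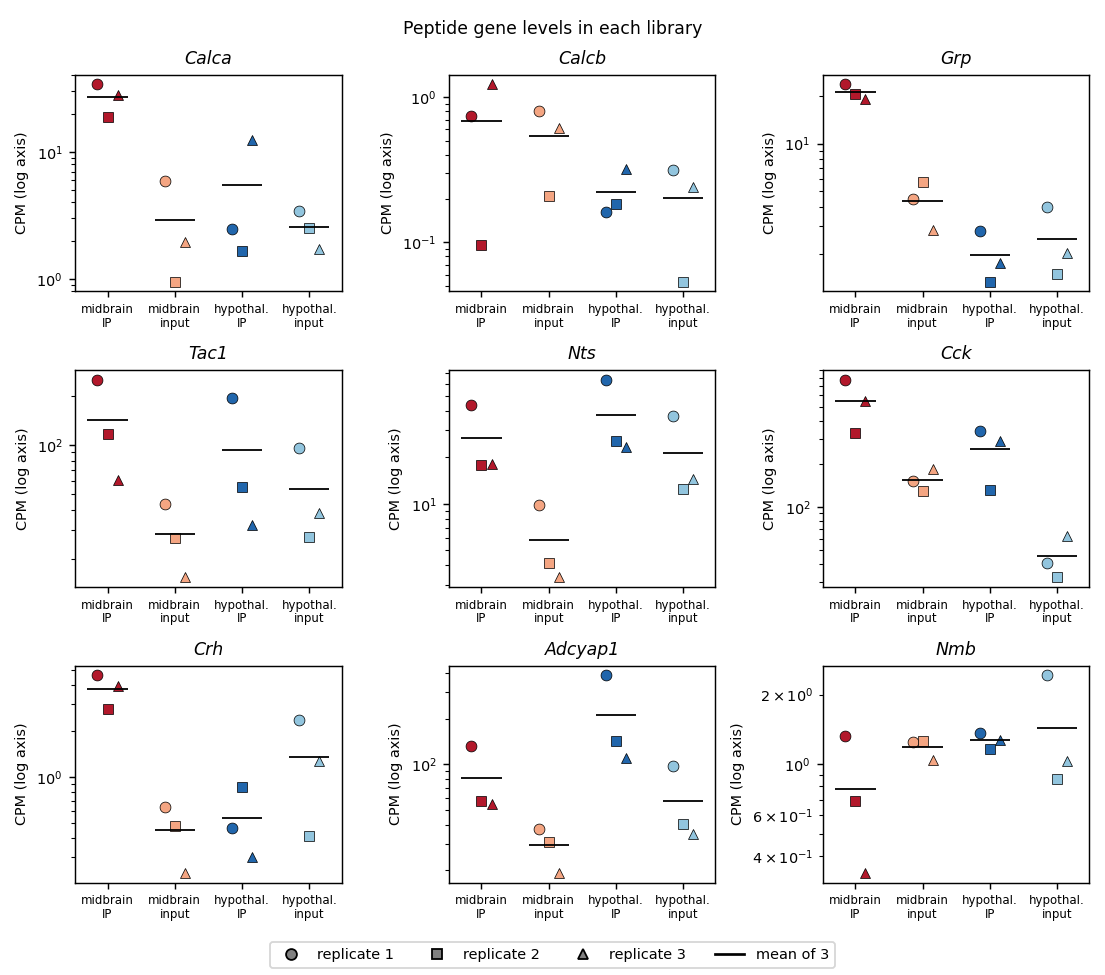
Level of each peptide gene in CPM on a log axis in the 12 libraries; symbols are replicates 1, 2 and 3, horizontal lines are means of 3. Calca, Grp and Crh lie above all libraries of the other 3 groups in the midbrain IP, and Adcyap1 is highest in the hypothalamus IP.

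Of the CGRP genes, Calca had the largest midbrain difference and Calcb had little. Calca was at 33.9, 18.7 and 28.1 CPM in the midbrain IP, against 5.86, 0.954 and 1.94 CPM in the midbrain input. All IP libraries were above all input libraries, and the input itself spanned a wide range, with replicate 1 the highest. The fitted log2 fold change was 3.20 (SE 0.78), and it came to 4.22 without midbrain input replicate 1. In the hypothalamus Calca was at 2.46, 1.67 and 12.4 CPM in the IP, against 3.41, 2.51 and 1.73 CPM in the input. Replicate 3 of the IP alone stood above the input, while the IPs of replicates 1 and 2 lay under their own inputs. The log2 fold change of 1.11 did not pass (SE 0.74, adjusted p = 0.272), and with hypothalamus IP replicate 3 left out it was −0.30 (adjusted p = 0.751).

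The same library, hypothalamus IP replicate 3, also carried the most thalamic marker RNA of the hypothalamus libraries. The summed level of Tcf7l2, Gbx2, Lef1, Prkcd and Rgs16, listed here as thalamic markers, was 287, 504 and 1701 CPM in the 3 hypothalamus IP libraries. In the hypothalamus input libraries it was 138, 278 and 570 CPM. Tcf7l2 made up most of the sum, with a mean of 2071 CPM in the midbrain IP and 695 CPM in the hypothalamus IP. Whether cells of the midbrain or hypothalamus themselves express these genes was not tested. Of these 5 markers 0 were called higher or lower in the hypothalamus IP over input. In the midbrain the sum was 1969, 2276 and 3300 CPM in the IP and 803, 1062 and 1326 CPM in the input, and 1 of the 5 markers, Rgs16, was called higher (1.32, adjusted p = 0.0396). None of the 5 was at 0 in any of the 4 groups. In each group other than the hypothalamus IP, replicate 1 had the highest Calca level and the lowest thalamic sum. The part of thalamic RNA in the Calca values was not tested.

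**Figure D2:**
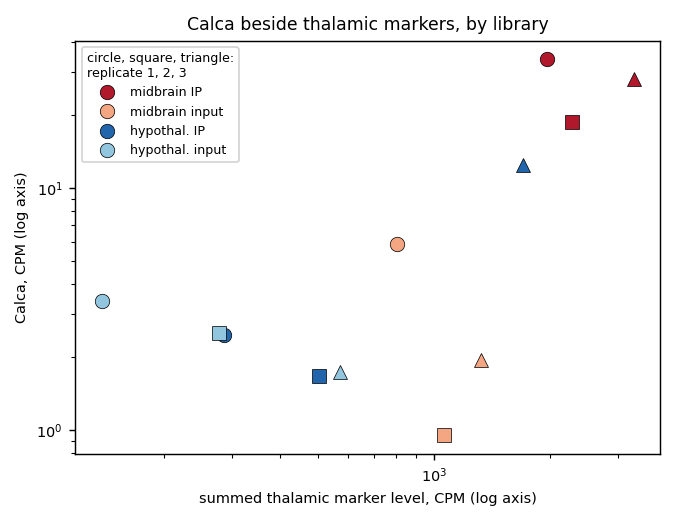
Calca level against the summed level of 5 thalamic markers in each of the 12 libraries, both in CPM on log axes; colours are groups and symbols replicates. Hypothalamus IP replicate 3, at 12.4 CPM of Calca and 1701 CPM of thalamic markers, lies nearest to the midbrain IP libraries. In each group other than the hypothalamus IP, replicate 1 has the highest Calca level and the lowest thalamic sum.

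Calca is also known from motor and other cholinergic neurons and from hindbrain nuclei, and levels of their markers are given here for the midbrain. The 6 cholinergic and motor markers summed to 12.1 to 14.7 CPM in the midbrain IP and to 11.9 to 14.7 CPM in the midbrain input. Of them Prph, an intermediate filament of motor and sensory neurons, rose in the IP (1.18, adjusted p = 0.0161), 2 fell and 3 did not pass. The 8 hindbrain markers summed to 0.0212 to 0.326 CPM in the midbrain IP, where 5 of the 8 were at 0, and to 0.662 to 2.11 CPM in the midbrain input. They were Hox genes and Slc6a5, and only 1 of the 8 was tested. Hindbrain cells that express none of these genes would not be seen by them. The part of cholinergic, motor or hindbrain cells in the Calca values was not tested.

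Calcb was at 0.744, 0.096 and 1.23 CPM in the midbrain IP and at 0.807, 0.207 and 0.615 CPM in the midbrain input, from 5 to 58 counts per library. The groups overlapped, and the fitted difference of 0.34 on the log2 scale (SE 0.95) changed sign when midbrain IP replicate 3 was left out (−0.37). In the hypothalamus the libraries held between 3 and 17 Calcb counts, and the log2 fold change was 0.12 (SE 0.98, adjusted p = 0.937).

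The bombesin-like pair parted in the same way. Grp was at 23.7, 20.5 and 19.2 CPM in the midbrain IP, against 4.46, 5.72 and 2.86 CPM in the midbrain input. The IP libraries lay close together and above every other library of the study, with a fitted log2 fold change of 2.28 (SE 0.41). In the hypothalamus Grp was at 2.80, 1.34 and 1.76 CPM in the IP and at 3.96, 1.5 and 2.03 CPM in the input. Each hypothalamus IP library was under the input library of its own number, but the groups overlapped and the log2 fold change of −0.34 (SE 0.40, adjusted p = 0.545) did not pass. Nmb, the gene of neuromedin B, was at 1.32, 0.691 and 0.339 CPM in the midbrain IP and at 1.25, 1.26 and 1.04 CPM in the midbrain input, so that it is one of 2 genes of the 9 for which the midbrain IP did not stand above the input. Its log2 fold change was −0.60 (SE 0.60) in the midbrain and −0.18 (SE 0.59, adjusted p = 0.845) in the hypothalamus.

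Tac1 and Nts, the genes of substance P and neurotensin, were higher in the midbrain IP, and replicate 1 was their highest library in every group. Tac1 was at 249, 116 and 61.2 CPM in the midbrain IP, against 43.3, 27.0 and 15.5 CPM in the midbrain input. The IP libraries were all above the input libraries even though they spread widely, and the 3 same-numbered log2 differences, 2.52, 2.10 and 1.98, were much closer together than the levels. In the hypothalamus Tac1 was at 193, 55.0 and 32.1 CPM in the IP and at 95.3, 27.3 and 38.0 CPM in the input. Here the groups overlapped, replicate 3 had less in the IP than in the input, and the log2 fold change of 0.80 did not pass (SE 0.69, adjusted p = 0.405). Without hypothalamus IP replicate 1 it was −0.30 (adjusted p = 0.748).

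Nts was at 43.9, 17.8 and 18.3 CPM in the midbrain IP, against 9.89, 4.17 and 3.36 CPM in the midbrain input. The same-numbered log2 differences were 2.14, 2.07 and 2.41. In the hypothalamus Nts was at 63.6, 25.5 and 23.4 CPM in the IP, against 36.9, 12.5 and 14.6 CPM in the input. All 3 numbers had more in the IP, by 0.78, 1.02 and 0.68 on the log2 scale, but the groups overlapped because the replicate 1 input was above the replicate 2 and 3 IPs. The log2 fold change of 0.81 did not pass without the block (SE 0.56, adjusted p = 0.293) and passed with it, at the value given above. It also passed when replicate 1 was left out of all groups (0.85, adjusted p = 0.0157).

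**Figure D3:**
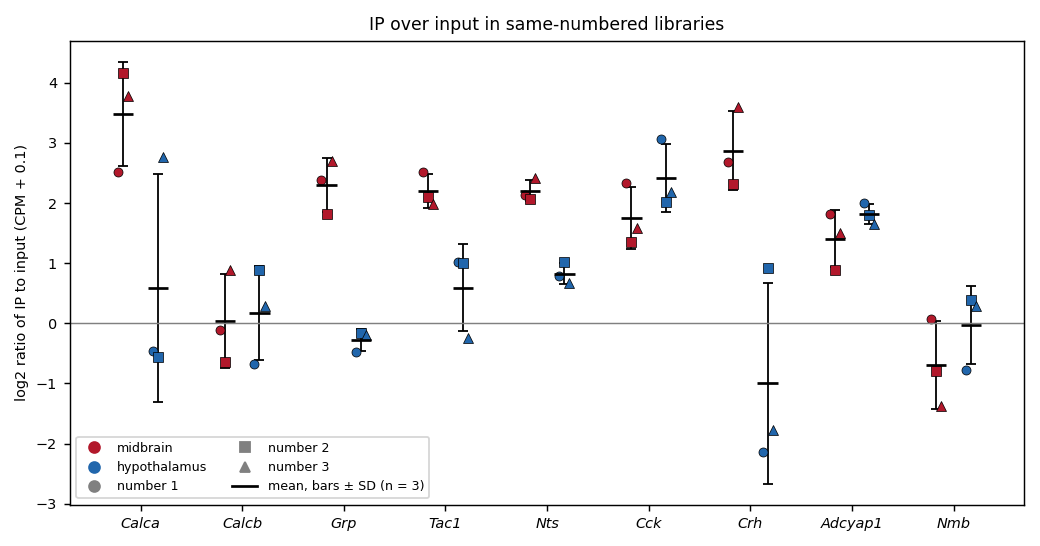
Log2 ratio of IP to input CPM (0.1 CPM added to both) for the libraries of the same number and region; the midbrain is left of the hypothalamus for each gene, symbols are numbers 1, 2 and 3, and bars show the mean ± SD (n = 3). All 3 numbers are above 0 in the midbrain for 7 genes and in the hypothalamus for Nts, Cck and Adcyap1, and Grp lies above 0 in the midbrain and below 0 in the hypothalamus in all 3.

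Cck was the most abundant of the 9 genes per length and had more in the IP than in the input of both regions. It was at 769, 329 and 549.8 CPM in the midbrain IP, against 152, 129 and 184 CPM in the midbrain input. In the hypothalamus it was at 339.8, 131 and 287 CPM in the IP, against 40.4, 32.4 and 63.0 CPM in the input. In each region the lowest IP library was above the highest input library, which in the hypothalamus 19.7% of genes tested showed, and replicate 2 was the lowest of each IP. The fitted midbrain log2 fold change was 1.83 (SE 0.38), and the hypothalamus value of 2.48 passed the test in every setting tried, with values of 2.13 to 2.81 when libraries or replicate numbers were left out. Cck is known from dopamine neurons and from cortical and thalamic excitatory neurons. The 8 dopamine markers summed to 47.7 to 77.5 CPM in the midbrain IP and to 365 to 513 CPM in the midbrain input, none at 0, with 6 called lower. The 7 telencephalic markers summed to 106, 32.7 and 87.4 CPM in the midbrain IP (replicates 1, 2 and 3). In the midbrain input they summed to 31.5, 33.1 and 84.5 CPM. None was at 0 in either group, with 0 called higher and 1 lower in the IP. The order of replicates was that of Cck in the midbrain IP but not in the midbrain input. In the hypothalamus the dopamine markers summed to 69.9 to 115 CPM in the IP and to 191 to 334 CPM in the input. Of these 8 markers 6 were called lower there. The telencephalic markers summed to 38.0 to 47.5 CPM in the hypothalamus IP and to 27.6 to 49.6 CPM in the input, with 0 called higher or lower. The thalamic sums are those given above. The part of dopamine, telencephalic or thalamic cells in the Cck values was not tested.

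Adcyap1, the gene of PACAP, which raises cyclic AMP in its target cells, was lower in the midbrain IP than in the hypothalamus IP in each number. It was at 132, 57.2 and 54.9 CPM in the midbrain IP, against 37.3, 30.9 and 19.2 CPM in the midbrain input. In the hypothalamus it was at 387, 142 and 109.8 CPM in the IP, against 97.1, 40.5 and 34.8 CPM in the input. Replicate 1 was the highest library of every group, and in both regions all IP libraries were above all input libraries. The hypothalamus call of 1.89 was lost when hypothalamus IP replicate 1 was left out (1.13, adjusted p = 0.0813), and likewise for replicate 2 (1.69, adjusted p = 0.0711) or 3 (1.65, adjusted p = 0.0557) of the input. It was lost as well when replicate 2 (adjusted p = 0.123) or replicate 3 (adjusted p = 0.0550) was left out of all groups, and held with the block (1.83, adjusted p = 9.46e-06). The same-numbered differences were 1.82, 0.89 and 1.51 in the midbrain and 1.99, 1.81 and 1.65 in the hypothalamus.

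Crh, the gene of corticotropin-releasing hormone, which drives the pituitary stress axis from the paraventricular hypothalamus, was low in all groups. It was at 4.63, 2.78 and 3.98 CPM in the midbrain IP, against 0.634, 0.477 and 0.236 CPM in the midbrain input. These are 145 to 218 counts per IP library and 10 to 33 per input library, with no overlap and a fitted log2 fold change of 3.07 (SE 0.70). In the hypothalamus Crh was at 0.463, 0.863 and 0.300 CPM in the IP and at 2.38, 0.412 and 1.27 CPM in the input. Replicates 1 and 3 had less Crh in the IP than in the input and replicate 2 had more, and the log2 fold change of −1.31 did not pass (SE 0.66, adjusted p = 0.150).

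Between the regions the IPs separated 3 of the 9 genes. Calca, Grp and Crh had all midbrain IP libraries above all hypothalamus IP libraries, with fitted log2 fold changes of 2.29 (SE 0.75), 3.42 (SE 0.43) and 2.80 (SE 0.69), where 8.52% of genes tested were higher without overlap. For the other 6 the groups overlapped, with values of 1.63 for Calcb, 1.12 for Cck, 0.61 for Tac1, −0.49 for Nts, −0.69 for Nmb and −1.39 for Adcyap1. Of the 9 genes 0 had all midbrain IP libraries under all hypothalamus IP libraries, where 10% of genes did. Between the inputs, Cck was higher in the midbrain (1.77, SE 0.38) and Nts lower (−1.87, SE 0.58) without overlap, where 10.2% and 11.9% of genes were. The midbrain libraries took part in the choice of genes, so these values are given without a test.

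The order of the genes by level was set per length of merged exons, in CPM per kb. In the midbrain IP Cck led with 421 ± 169 CPM per kb (SD, n = 3), ahead of Tac1 at 41.8 ± 28.5, Adcyap1 at 21.5 ± 11.6, Nts at 21.4 ± 12, Calca at 16 ± 4.6 and Grp at 14.3 ± 1.6. Crh at 2.88 ± 0.71, Nmb at 0.986 ± 0.625 and Calcb at 0.545 ± 0.449 CPM per kb closed the order. Cck was above Tac1, Grp above Crh and Crh above Nmb in all 3 libraries, while the ranges of the other neighbours overlapped. In the hypothalamus IP Cck was at 194 ± 83 CPM per kb, Adcyap1 at 56.4 ± 40.1, Nts at 30.0 ± 18.1 and Tac1 at 27.5 ± 25.6. Calca at 3.27 ± 3.55, Nmb at 1.60 ± 0.13, Grp at 1.33 ± 0.51, Crh at 0.411 ± 0.220 and Calcb at 0.175 ± 0.067 CPM per kb followed. Only the steps between Tac1 and Calca and between Grp and Crh were free of overlap there.

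**Figure D4:**
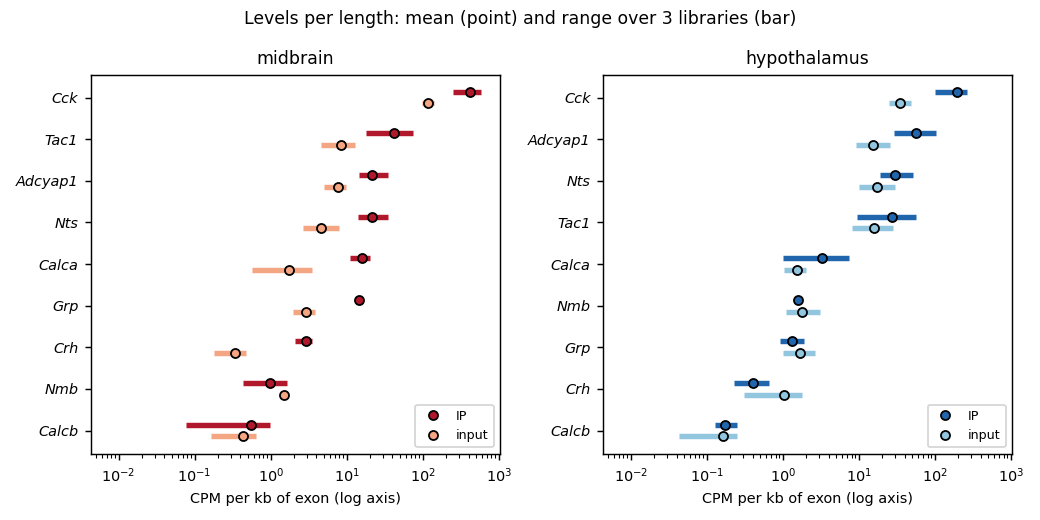
Level per length, in CPM per kb of merged exons on a log axis, of the 9 genes in the midbrain (left) and the hypothalamus (right), ordered by the IP mean; points are means of 3 libraries and bars run from the lowest to the highest library. Cck leads in every group, and Crh is above Nmb in the midbrain IP and below it in the hypothalamus IP.

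Tac1, Nts and Adcyap1 varied with the replicate number alike. Replicate 1 was the highest library in all 4 groups for these 3 genes and for Slc17a6, as it was for 2167 of 18128 genes (12%). The log2 levels of Nts and Adcyap1 had a Pearson r of 0.91 over the 12 libraries, those of Tac1 and Nts one of 0.84 and those of Tac1 and Adcyap1 one of 0.76, as descriptions over libraries that share regions, fractions and numbers. Grp had its highest correlation among the 9 with Crh (0.76), followed by Calca (0.73), and Nmb was negatively correlated with Calca (−0.41). Among 10380 genes with a mean of at least 5 CPM, Rtn4rl1 (0.98) was among those whose log2 level was most like Cck. The most like were Lhfpl5 (0.97) and Fxyd6 (0.97) for Nts, Nhlrc1 (0.97) and Tkt (0.97) for Adcyap1, and Flot2 (0.96) and Fam134a (0.95) for Tac1. For Grp they were Hs3st2 (0.93) and Galnt14 (0.93), and for Calca Cthrc1 (0.90) and Camk2d (0.89). For the scarcer genes they were Ifrd1 (0.92) and Wnt3 (0.86) for Calcb, Agk (0.88) and Ppapdc1a (0.84) for Crh, and Gucy1a3 (0.85) and Aldh9a1 (0.84) for Nmb.

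Receptors and binding partners of these peptides were expressed in the same libraries, and 20 of the 21 listed were tested. In the midbrain IP 2 rose, 3 fell and 15 did not pass, with a median log2 fold change of 0.27, beside 14% of all genes higher, 19.9% lower and a median of −0.05. Ramp3, which turns the calcitonin receptor into an amylin receptor, was at 69.8 ± 37.1 CPM in the IP, against 19.2 ± 10.5 CPM in the input (1.86, adjusted p = 0.0265). The gene of the CRH-binding protein, Crhbp, was at 6.35 ± 1.51 CPM in the IP, against 3.17 ± 1.38 CPM in the input (1.00, adjusted p = 0.0452). Calcrl and Ramp1, which together form the CGRP receptor, fell by 2.12 (adjusted p = 0.0166) and by 2.07 (adjusted p = 0.00329) on the log2 scale. Of 5 endothelial markers 4 fell there and 1 did not pass. They summed to 0.677 to 1.44 CPM in the midbrain IP, against 7.30 to 12.1 CPM in the midbrain input. The part of endothelial cells in the Calcrl and Ramp1 values was not tested. Ntsr2, a neurotensin receptor known from astrocytes, was at 2.40 ± 1.38 CPM in the IP, against 47.0 ± 11.8 CPM in the input (−4.29, adjusted p = 0.000326), and astrocyte markers fell with it (5 of 5, summing to 11.6 to 23.8 CPM in the IP, against 216 to 356 CPM in the input, none at 0). The calls of Ntsr2 and Ramp1 held with each single library left out, and that of Ramp1 was lost without replicate number 2 (adjusted p = 0.0557). The Ramp3 call was lost without midbrain IP replicate 1 (adjusted p = 0.0617) or 3 (0.0923), midbrain input replicate 1 (0.0725) or 2 (0.0901), or replicate number 1 (0.235). The Calcrl call was lost without midbrain IP replicate 1 (adjusted p = 0.0517) or 2 (0.0542), or replicate number 1 (0.0602) or 2 (0.154). The Crhbp call was lost without midbrain IP replicate 1 (adjusted p = 0.116) or 2 (0.109), midbrain input replicate 2 (0.133) or 3 (0.156), hypothalamus IP replicate 2 (0.0570), hypothalamus input replicate 2 (0.0515) or 3 (0.0549), or replicate number 2 (0.296) or 3 (0.103). It was also lost with limma-voom (adjusted p = 0.0842) and with the midbrain libraries alone (0.0745).

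In the hypothalamus IP 0 of the 20 receptor genes rose, 3 fell and 17 did not pass, beside 14.2% of all genes higher and 19.6% lower, with a median log2 fold change of −0.11 beside −0.08 over all genes. For the higher direction edgeR's quasi-likelihood test gave 1 gene at an unadjusted p under 0.05, DESeq2 gave 1, limma-voom 0 and the replicate block 1. With the block that gene was Ramp3 (1.36, adjusted p = 0.000488). Ntsr2 fell by 4.91 (adjusted p = 0.000159) and Ramp1 by 1.31 (adjusted p = 0.0300) on the log2 scale. The other was the VIP receptor gene Vipr1, named after its values were seen, with 1 count in the 3 IP libraries together and 81 in the 3 input libraries. The Ramp1 call was lost without hypothalamus IP replicate 2 (adjusted p = 0.0839) or 3 (0.0959), hypothalamus input replicate 1 (0.138), or replicate number 2 (0.119) or 3 (0.128), and with the hypothalamus libraries alone (0.0632). The PACAP receptor gene Adcyap1r1 was at 91.8 ± 53.3 CPM in the hypothalamus IP, against 187 ± 103 CPM in the input (−1.03, adjusted p = 0.113), and with the block it was lower (−1.04, adjusted p = 4.65e-05).

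The genes that process, sort and release peptides were all measured. Of 18, in the midbrain IP 1 rose, 0 fell and 17 did not pass, beside the 14% higher and 19.9% lower among all genes, with a median log2 fold change of 0.11. At an unadjusted p under 0.05 edgeR's quasi-likelihood test had 1 lower, DESeq2 1 and limma-voom 0. The gene that rose was Pcsk1n, the precursor of a convertase inhibitor, at 313 ± 94 CPM in the IP, against 143 ± 21 CPM in the input (1.13, adjusted p = 0.0313). Its call was lost without midbrain IP replicate 1 (adjusted p = 0.116), midbrain input replicate 1 (0.0955), 2 (0.0525) or 3 (0.0880), or replicate number 2 (0.0754) or 3 (0.109). Pam, the amidating enzyme that acts on the glycine shown in capitals above, was at 154 ± 66 CPM in the IP, against 70.6 ± 42.5 CPM in the input (1.12, adjusted p = 0.175), and the convertase gene Pcsk2 at 238 ± 80 CPM in the IP, against 140 ± 45 CPM in the input (0.77, adjusted p = 0.211). With the replicate block 7 were higher, among them Pam (1.21, adjusted p = 6.8e-05) and Pcsk2 (0.76, adjusted p = 0.00156), and 1 was lower. Pairing by number was not taken as shown in the midbrain.

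In the hypothalamus IP 0 of the 18 processing genes rose, 1 fell and 17 did not pass, beside 14.2% of all genes higher and 19.6% lower, with a median of 0.16. Higher were 2 at an unadjusted p under 0.05 by edgeR's quasi-likelihood test, 2 with DESeq2 and 0 with limma-voom. With the replicate block 5 were higher, among them Pcsk2 (1.09, adjusted p = 0.000113) and Pam (0.79, adjusted p = 0.00153), and 3 were lower. The gene that fell without the block was Cadps2, which primes dense-core vesicles for release, at 56.4 ± 23.4 CPM in the IP, against 103 ± 11 CPM in the input (−0.86, adjusted p = 0.0253). This call was lost without hypothalamus IP replicate 2 (adjusted p = 0.0560), hypothalamus input replicate 1 (0.0703) or 2 (0.0623), or replicate number 1 (0.0768) or 2 (0.163), and with the hypothalamus libraries alone (0.0755).

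**Figure D5:**
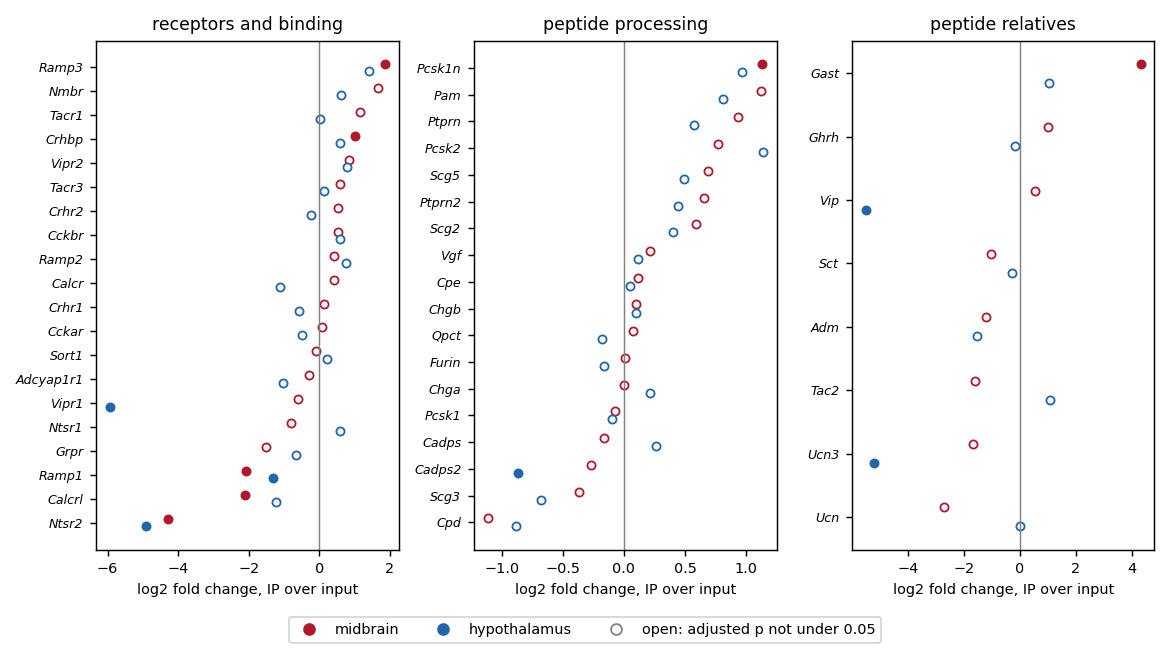
Log2 fold change of IP over input for receptors and binding partners, processing genes and relatives of the 9 peptide genes that were tested; red is the midbrain, blue the hypothalamus, and filled points passed an adjusted p of 0.05. Ntsr2 and Ramp1 are filled on the low side in both regions, and filled points on the high side are Ramp3, Crhbp, Pcsk1n and Gast, all in the midbrain.

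Relatives of the 9 genes in the calcitonin, tachykinin, gastrin, CRH and secretin families were mostly scarce, and 8 of 14 were tested. In the midbrain IP 1 rose and 0 fell, beside 14% of all genes higher and 19.9% lower. The median log2 fold change was −1.12, beside −0.05 over all genes. The one that rose was Gast, the gene of gastrin, a relative of Cck named after its values were seen, with 48 counts in the 3 IP libraries together and 2 in the 3 input libraries. That call was lost without midbrain IP replicate 1, midbrain input replicate 1 or 2, or replicate number 1 or 2, and also with limma-voom, with the midbrain libraries alone and with the replicate block (3.89, adjusted p = 0.0561). The count of lower genes was 0 at an unadjusted p under 0.05 by edgeR's quasi-likelihood test and with DESeq2, and 1 with limma-voom. In the hypothalamus IP 0 rose, 2 fell and 6 did not pass, beside 14.2% of all genes higher and 19.6% lower. The median was −0.23, beside −0.08 over all genes. At an unadjusted p under 0.05 by edgeR's quasi-likelihood test, with DESeq2 or with limma-voom, 0 rose. Vip, a relative of Adcyap1, was at 0.038 ± 0.018 CPM in the hypothalamus IP, against 1.84 ± 1.44 CPM in the input (−5.51, adjusted p = 0.00399). Ucn3, a relative of Crh, was at 0.097 ± 0.084 CPM in the IP, against 3.65 ± 1.59 CPM in the input (−5.21, adjusted p = 0.00565). In the midbrain the log2 fold change was 0.53 for Vip and −1.67 for Ucn3, and the difference between the regional effects did not pass (6.04, adjusted p = 0.248, for Vip and 3.54, adjusted p = 0.913, for Ucn3). The hypothalamus call was lost without replicate number 2 for Vip (adjusted p = 0.0546) and without number 3 for Ucn3 (adjusted p = 0.0586).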

How the data were processed

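The authors deposited unnormalised counts of reads for each gene symbol in each of 12 libraries; per the submitters' processing notes, reads were aligned with STAR 2.0.0e to mm10 and counted with HTSeq. The annotation, strand setting and counting mode are not given in the sources used here. The 5 summary rows of each table were left out. The 3-count floor covers counting error only, as the labels name no molecular identifiers, and as separate animals are not stated, the p-values reflect only how these samples spread, which may be technical.

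From the counts, edgeR 4.0.16 (R 4.3.3) with filterByExpr, TMM scaling and 1 fit of 4 group means gave quasi-likelihood tests with Benjamini-Hochberg adjusted p under 0.05. The script was tested on simulated data. CPM uses TMM-scaled totals. The 9 genes and the lists were chosen with earlier results of these data known, and the 9 were tested in the hypothalamus only. Of each list, the 3 called genes with the largest and the 3 with the smallest change at a mean of at least 1 CPM are named, and for likeness the 2 genes with the highest Pearson r; some results under these rules are not reported here. Coordinates and lengths are from GENCODE release M21. Alternatives were other scaling, no filter, DESeq2 1.42.0, limma-voom 3.58.1, the replicate number as a block, the libraries of 1 region, and each library or number left out.

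Same-numbered IP and input libraries deviated together in the hypothalamus (correlations of 0.32, 0.16 and 0.15 across genes), and the numbers were taken to pair them. The main fit of 4 group means does not use this pairing. In the hypothalamus the block called 3 of the 9 genes, 1 receptor and 5 processing genes higher. The main fit called 2, 0 and 0. In the midbrain 1 correlation of 3 was under 0.1 (0.19, 0.075 and 0.16), so pairing was not taken as shown there. Same-numbered libraries of different regions also deviated together (0.30, 0.11 and 0.22 for the IPs, 0.38, 0.14 and 0.17 for the inputs). These values cannot tell pairing of IP with input from an effect of the number shared by all groups. The block fits the number over both regions.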

Additional observations from a re-analysis of the deposited data

Results flagged for a closer look

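The IP over input differences of Grp had opposite signs in the regions. The same-numbered log2 differences of IP over input were above 0 in all 3 numbers in the midbrain (2.38, 1.82 and 2.70, mean 2.30 ± 0.45, SD) and below 0 in all 3 in the hypothalamus (−0.48, −0.15 and −0.20, mean −0.28 ± 0.18). The gap between the regional means was 2.58 on the log2 scale. This difference was not tested, because the midbrain libraries took part in the choice of the gene, and the hypothalamus value alone did not pass. Grp overlaps an antisense gene, and ambiguous reads made up 3.14% to 3.65% of IP and 7.68% to 26% of input libraries; their part in this difference was not tested.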

How the results depend on the processing

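Of the 9 peptide genes, 2 were called higher in the hypothalamus under other scaling, without the filter, with DESeq2, with limma-voom and with the region alone. With the replicate block, which fits the replicate number over all groups, 3 were called higher. The count was 1 to 3 with libraries or numbers left out, and the count of lower genes was 0 in every setting. Reversed hypothalamus values, none past the threshold, were those of Calca without IP replicate 3 (−0.30) or number 3 (−0.48), of Tac1 without IP replicate 1 (−0.30), of Grp without input replicate 1 (0.16) and of Nmb without input replicate 1 (0.43) or number 1 (0.37). Over all libraries and numbers left out, hypothalamus values ran from −0.48 to 1.73 for Calca, −0.33 to 0.76 for Calcb, −0.68 to 0.16 for Grp, −0.30 to 1.52 for Tac1 and −0.44 to 0.43 for Nmb, and midbrain values from −0.37 to 0.86 for Calcb. Calcb reversed in the hypothalamus without IP replicate 3 (−0.23), input replicate 2 (−0.33), number 2 (−0.21) or number 3 (−0.04). It reversed in the midbrain with limma-voom (−0.10) and without IP replicate 3 (−0.37), input replicate 2 (−0.05) or number 3 (−0.24). With the replicate block the midbrain counts were 5 receptors higher, 7 processing genes higher and 1 lower, and 0 relatives higher, and in the hypothalamus 1 receptor higher, 5 processing genes higher and 3 lower. In the midbrain 1 same-numbered correlation of 3 was under 0.1, so pairing is not shown there; the block gave Pam 1.21 (adjusted p = 6.8e-05) and Pcsk2 0.76 (adjusted p = 0.00156). DESeq2 called 1 receptor and 2 processing genes higher in the hypothalamus and 1 processing gene lower in the midbrain. With limma-voom 1 receptor and 0 relatives were higher and 1 relative lower in the midbrain. With the region alone, 0 processing genes were lower in the hypothalamus, and in the midbrain 2 were higher, 1 was lower and 0 relatives were higher. Scaling by library size gave 1633 genes higher in the hypothalamus, against 2576, and 1 processing gene lower in the midbrain. The cause of these shifts was not tested. With libraries or numbers left out, genes higher ranged over 1046 to 2841 in the midbrain and 794 to 2619 in the hypothalamus, and genes lower over 1837 to 3925 and 1567 to 3727. In the midbrain, receptors ranged over 0 to 2 higher and 1 to 3 lower, processing genes over 0 to 7 higher and 0 to 1 lower, and relatives over 0 to 1 higher and 0 to 1 lower. In the hypothalamus, receptors ranged over 0 to 1 higher and 2 to 4 lower, processing genes over 0 to 4 higher and 0 to 3 lower, and relatives over 1 to 2 lower. Per length, 10 ranks over the 4 groups changed when the longest transcript replaced merged exons. With 3 to 17 counts per hypothalamus library, depth limits what can be seen of Calcb.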
